A study of Glycine max with 10 samples.

Results

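The comparison described here asked which leaf transcripts of soybean differed when an inducer population was present on plants that carried biotype 1 of the soybean aphid. It took 4 of the 10 RNA-seq libraries of the series, all sampled at day 11 and chosen by their labels for treatment, cultivar and day. The cultivar labelled susceptible, LD12-15838R, gave 1 library from plants with 50 biotype 2 aphids as the inducer followed by 15 biotype 1 aphids, and 1 library from plants with 15 biotype 1 aphids and no inducer. The cultivar labelled resistant, LD12-15813Ra, which carries the resistance gene Rag1, gave the same 2 libraries. These are called the susceptible pair and the resistant pair below. The plants were grown in a greenhouse and aphids were placed on the plants of all 4 libraries. The 2 libraries of plants without aphids at day 11, 1 per cultivar, are given as background. Each library was made from RNA of 3 replicates mixed before sequencing, so no difference within a pair has a replicate check.

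Soybean aphids feed on phloem sap through stylets that pass between leaf cells, and plants with Rag1 hold down the growth of biotype 1, which is called avirulent for that reason. Biotype 2 is virulent on such plants. In induced susceptibility a first aphid population alters the plant so that later aphids do better on it, and the first population is called the inducer. Libraries with an inducer here therefore held both biotypes, and the comparison with biotype 1 alone differs in both the kind and the number of aphids placed on the plant, which cannot be told apart.

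The 4 libraries held between 23394065 and 25665558 estimated counts. A floor of 3 counts was chosen for calling a gene not detected, and is not a measured limit. It lay between 0.117 and 0.128 CPM, which is the count of a gene scaled to a common library total. Levels below are CPM after scaling with edgeR's TMM factors, which were 1.03 for biotype 1 alone and 0.904 with the inducer in the susceptible pair, and 1.02 and 1.06 in the resistant pair. The 10 most abundant genes took 5.36% of counts with biotype 1 alone and 7.75% with the inducer in the susceptible pair, and 6.57% and 4.64% in the resistant pair. The labels of cultivar were checked with 110 genes in which an 8-fold gap parted the 3 day 11 libraries of one cultivar from the 3 of the other. In 109 and 110 of these the 2 day 1 libraries labelled susceptible lay nearer to the day 11 libraries labelled resistant, and in 64 and 110 of them the 2 day 1 libraries labelled resistant lay nearer to the day 11 libraries labelled susceptible, the 64 belonging to the control. The names susceptible and resistant therefore stand for labels throughout. Within day 11, a single library stood apart from the other 5 by such a gap in between 1 and 5 genes, and 0 genes parted the libraries with the inducer from those with biotype 1 alone over both cultivars. Of the 110 genes, 17 differed 2-fold between the libraries of the susceptible pair and 11 between those of the resistant pair. The shares over all genes kept were smaller, 5.44% and 2.46%. Why these genes differed within a pair was not tested. Genes are given by the identifiers of the deposited table. None of the identifiers (0) matched the reference gene table, so no names or functions are attached to them, and defining markers of leaf or of other tissues could not be checked.

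In the susceptible pair, 1006 of the 37468 genes kept were at least 2-fold higher with the inducer (2.68%) and 1034 were at least 2-fold lower (2.76%), on the scale of log2(CPM + 1). Together these were 5.44% of the genes kept. Most of these differences were modest, since 95 genes were at least 4-fold higher and 78 at least 4-fold lower, and 11 and 13 reached 8-fold. The genes that were higher took 3.17% of all counts with biotype 1 alone and 7.15% with the inducer, and 5.88% in the control of the same cultivar. The genes that were lower took 3.75% and 1.12%, and 2.81% in the control. In the cultivar labelled resistant the same lower genes took 1.39% with biotype 1 alone, 1.66% with the inducer and 1.24% in the control. The higher genes took 5.58%, 4.77% and 6.11% there, in the same order. The median level of the lower genes was 10.2 CPM with biotype 1 alone, 3.24 CPM with the inducer and 7.95 CPM in the control. In the cultivar labelled resistant it was 3.57, 3.24 and 3.27 CPM, so only the susceptible library with the inducer was at that level. The medians of the higher genes were 5.4, 16.3 and 7.37 CPM, and 11.7, 10.8 and 14.7 CPM under the resistant label. Why this was so was not tested. Shares and medians of the 2 aphid libraries of a pair differ because the genes were chosen by that difference. In a bulk leaf sample, fewer cells of a type and less RNA per cell cannot be told apart, and this holds for every value here. The division into higher and lower followed the scaling, with 49.3% of the called genes higher under TMM and 28.5% under plain library totals (637 higher and 1597 lower).

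The largest difference of the susceptible pair was that of Glyma.13G084000 on chromosome 13, with 0.769 CPM with biotype 1 alone, 154 CPM with the inducer and 89.6 CPM in the control. The library with biotype 1 alone thus stood apart from the other 2, and the ratio of inducer to biotype 1 alone was 200.01, with an exact 95% interval of 128 to 333 that covers counting error only. Glyma.13G014600, also on chromosome 13, had 0 counts with biotype 1 alone and 0 in the control against 1221 counts, or 57.7 CPM, with the inducer. This is at least 475-fold higher, against a floor of 3 counts in the library with biotype 1 alone. In the cultivar labelled resistant the same gene had 12.4 CPM in the control and 0 counts in both aphid libraries, so it was detected in 2 of the 6 libraries of day 11, and not in the same treatment.

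Among the genes lower with the inducer in the susceptible pair, Glyma.11G152700 on chromosome 11 had 19.6 CPM with biotype 1 alone, 0.142 CPM with the inducer and 0.338 CPM in the control. Here biotype 1 alone was the high library, and its ratio to the inducer was 138 (exact 95% interval from 47.0 to 672), with 3 counts in the library with the inducer. The 3 libraries of the cultivar labelled resistant had between 0.0430 and 0.195 CPM of this gene. Glyma.17G259500 on chromosome 17 had 331 CPM with biotype 1 alone, 22.3 CPM with the inducer and 243 CPM in the control. Here the library with the inducer was the low one, 14.8-fold lower than biotype 1 alone (exact 95% interval from 13.5 to 16.3). The same gene had between 0.994 and 5.64 CPM in the cultivar labelled resistant.

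**Figure D1:**
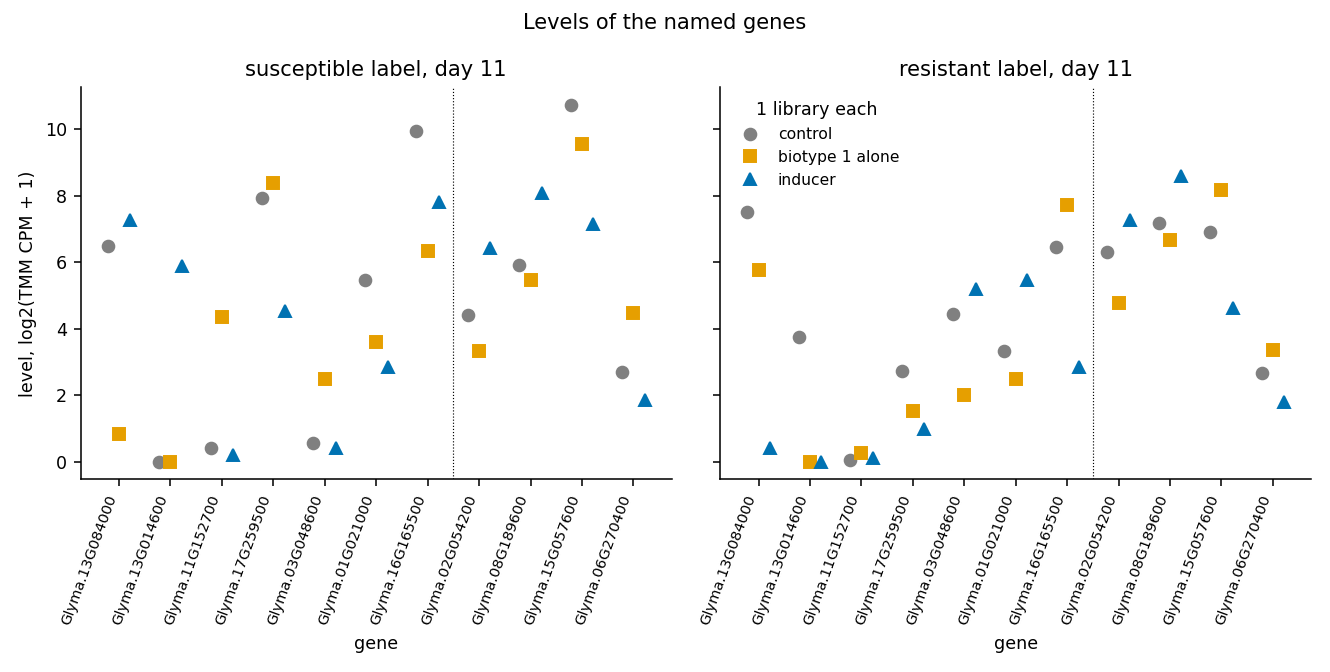
Levels of 11 genes at day 11 in the cultivar labelled susceptible (left) and resistant (right), as log2(TMM CPM + 1), with 1 point per library for control (circles), biotype 1 alone (squares) and inducer with biotype 1 (triangles) and no error bars. The 7 genes left of the dotted line have the 2 largest differences in either direction in a pair, among genes with a mean of 5 CPM or more over the 4 libraries, such as Glyma.13G084000 with a triangle at 154 CPM on the left and at 0.331 CPM on the right, and the 4 genes right of it have the triangle on the same side of the square in both panels.

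In the resistant pair fewer genes passed 2-fold, 319 higher with the inducer (0.851%) and 604 lower (1.61%), together 2.46% of the genes kept. Lower genes were the larger group at each size, with 103 lower against 32 higher at 4-fold and 18 against 4 at 8-fold. At 16-fold 7 genes were lower and 0 higher. The genes that were higher took 0.713% of counts with biotype 1 alone, 1.88% with the inducer and 1.08% in the control. The genes that were lower took 4.50%, 1.74% and 3.83% in the same order. Under plain library totals 383 genes were higher and 568 lower.

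Glyma.03G048600 on chromosome 3 had the largest positive difference of the resistant pair among genes with a mean of 5 CPM or more over the 4 libraries, with 3.04 CPM with biotype 1 alone, 35.4 CPM with the inducer and 20.7 CPM in the control. The library with biotype 1 alone was the lowest of the 3, and the inducer was 11.7-fold higher (exact 95% interval from 9.25 to 14.9). Glyma.01G021000 on chromosome 1 had 4.56 CPM with biotype 1 alone, 42.8 CPM with the inducer and 9.08 CPM in the control. Here the inducer library alone was high, 9.39-fold over biotype 1 alone (exact 95% interval from 7.76 to 11.5). In the cultivar labelled susceptible the order of this gene was another one, with 43.2 CPM in the control, 11.1 CPM with biotype 1 alone and 6.15 CPM with the inducer.

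The gene with the largest negative difference in the resistant pair was again Glyma.13G084000, with 53.3 CPM with biotype 1 alone, 0.331 CPM with the inducer and 182 CPM in the control. Biotype 1 alone was 161-fold higher than the inducer (exact 95% interval from 84.5 to 353). This gene was thus low in 1 library of each cultivar at day 11, biotype 1 alone in the susceptible pair and the inducer in the resistant pair. Glyma.16G165500 on chromosome 16 had 212 CPM with biotype 1 alone, 6.15 CPM with the inducer and 86.3 CPM in the control, a 34.4-fold lower level with the inducer than with biotype 1 alone (exact 95% interval from 29.5 to 40.4). In the cultivar labelled susceptible it had 80.0 CPM with biotype 1 alone, 223 CPM with the inducer and 991 CPM in the control.

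The pairs share no library, so their differences can be set side by side. Of the 2040 genes past 2-fold in the susceptible pair and the 923 in the resistant pair, 260 passed in both. Of these 260 genes, 174 differed in opposite directions and 86 in the same direction. Of the 1006 genes higher in the susceptible pair, 113 were lower in the resistant pair, 11.2% of the susceptible list against 1.61% of all genes kept that were lower in the resistant pair, and 50 were higher there, 4.97% against 0.851%. As shares of the resistant lists these are 18.7% and 15.7%, against 2.68% of all genes kept that were higher in the susceptible pair. Of the 1034 genes lower in the susceptible pair, 61 were higher in the resistant pair, 5.90% of the susceptible list against 0.851% of all genes kept, and 36 were lower there, 3.48% against 1.61%. As shares of the resistant lists these are 19.1% and 5.96%, against 2.76% of all genes kept that were lower in the susceptible pair. Genes past 2-fold in one cultivar therefore passed it in the other more often than the genes kept as a whole, in either direction. The genes kept include 6523 with a mean under 1 CPM, of which few passed. Shares among genes of like level were not compared. No test of the difference between cultivars could be had, since each cultivar had 1 library per treatment.

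Over all 37468 genes kept, Pearson's r between the differences of the 2 pairs was -0.09, and -0.11 over the 22236 genes whose mean reached 5 CPM. These are correlations across genes of 4 single libraries, given as a description. The genes lower in the resistant pair had a median difference of 0.33 on the log2 scale in the susceptible pair, and 68.2% of them were above 0 there, where 48.2% of all genes kept were. The genes higher in the resistant pair had a median of -0.23 in the susceptible pair, with 61.1% below 0 against 51.6% of all genes kept. From the other side, the genes higher in the susceptible pair had a median of -0.11 in the resistant pair and those lower in it a median of 0. The SD of the differences was 0.524 in the susceptible and 0.390 in the resistant pair.

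**Figure D2:**
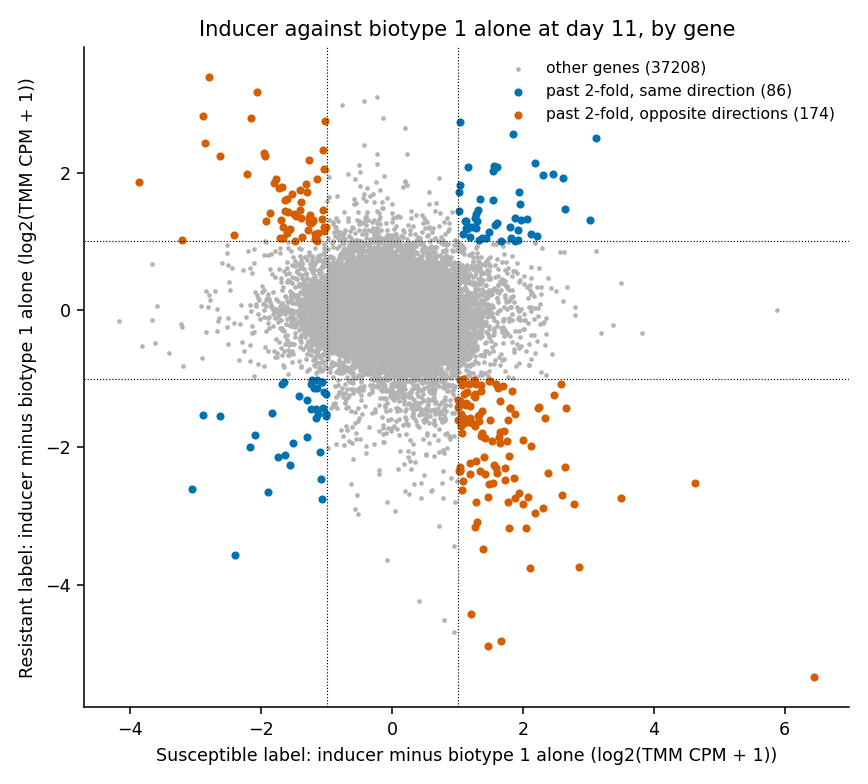
Difference between inducer and biotype 1 alone at day 11 for each of 37468 genes, on the scale of log2(TMM CPM + 1), with the susceptible pair on the x axis and the resistant pair on the y axis and dotted lines at 2-fold. The 174 genes in orange lie in the upper left and lower right corners and outnumber the 86 in blue, and the gene at the lower right edge is Glyma.13G084000 with 6.45 and -5.35.

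The 86 genes with the same direction in both pairs are described by their median levels. The 50 genes that were higher in both had a median level of 2.63 CPM with biotype 1 alone and 8.63 CPM with the inducer in the susceptible pair, and 6.74 and 17.4 CPM in the resistant pair. Their median in the control was 3.48 CPM in the cultivar labelled susceptible, close to biotype 1 alone, and 15.1 CPM in the one labelled resistant, close to the inducer. The control was nearer to the inducer than to biotype 1 alone for 14 of the 50 under the susceptible label and for 37 of the 50 under the resistant label. The 36 genes that were lower in both had medians of 10.4 and 3.78 CPM in the susceptible pair and 7.23 and 1.66 CPM in the resistant pair, with biotype 1 alone named first. Their control median was 20.6 CPM in the cultivar labelled susceptible, where the control was above both aphid libraries for 26 of the 36, and 4.13 CPM in the one labelled resistant, where it lay between them for 34 of the 36.

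A test across both cultivars was made with edgeR's quasi-likelihood test over the 6 libraries of day 11, with cultivar and treatment as terms. It took the spread from 2 residual degrees of freedom, which also hold any difference in response between the cultivars, and the common biological coefficient of variation was 0.277. It called 0 genes at a Benjamini-Hochberg adjusted p under 0.05 (0% of the genes kept), with 1221 at an unadjusted p under 0.05, and it called 0 over the 4 libraries of the pairs alone, with 1320. DESeq2's Wald test on the same 6 libraries called 51 genes (0.136%), 30 higher and 21 lower with the inducer. Of the 30 genes 26 were at least 2-fold higher in both pairs, and of the 21 genes 14 were at least 2-fold lower in both. Some calls rested on the susceptible pair. Glyma.13G014600, Glyma.11G152700 and Glyma.17G259500 were among the 51, with log2 differences of 0, -0.15 and -0.53 in the resistant pair. The calls thus depended on the tool.

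The 2 genes with the smallest adjusted p in each direction in DESeq2 are given here and were chosen after their values were seen. Glyma.02G054200 on chromosome 2 had 9.03 CPM with biotype 1 alone and 85.7 CPM with the inducer in the susceptible pair (control 20.2 CPM), and 26.2 and 153 CPM in the resistant pair (control 77.7 CPM). Both libraries with the inducer were above the other library of their pair and above their control, by 9.49-fold and 5.85-fold over biotype 1 alone. The difference in DESeq2 was 2.94 on the log2 scale (standard error 0.367, adjusted p = 3.36e-11), and the adjusted p in edgeR was 0.970 (unadjusted p = 0.000169, adjusted between 0.357 and 1 over its alternatives).

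Glyma.08G189600 on chromosome 8 had 43.4 CPM with biotype 1 alone and 271 CPM with the inducer in the susceptible pair (control 59.3 CPM), and 102 and 388 CPM in the resistant pair (control 143 CPM). In both cultivars the order was biotype 1 alone, control, inducer from low to high, with the inducer 6.24-fold and 3.81-fold over biotype 1 alone (DESeq2, log2 difference 2.32, standard error 0.326, adjusted p = 1.77e-08).

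Glyma.15G057600 on chromosome 15 had 748 CPM with biotype 1 alone and 141 CPM with the inducer in the susceptible pair (control 1696 CPM), and 289 and 23.5 CPM in the resistant pair (control 120 CPM). The inducer was the lowest of the 3 libraries in both cultivars, 5.31-fold and 12.3-fold under biotype 1 alone, while the control was the highest in one cultivar and between the others in the second (DESeq2, log2 difference -3.13, standard error 0.527, adjusted p = 2.18e-05). Glyma.06G270400 on chromosome 6 had 21.3 CPM with biotype 1 alone and 2.60 CPM with the inducer in the susceptible pair (control 5.46 CPM), and 9.16 and 2.47 CPM in the resistant pair (control 5.29 CPM). Its order was inducer, control, biotype 1 alone in both cultivars (DESeq2, log2 difference -2.48, standard error 0.467, adjusted p = 0.000397). The adjusted p of these last 3 genes in edgeR was 0.970 as well, and no setting of edgeR called any of the 4.

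The 174 genes with opposite directions form 2 groups. The 113 genes that were higher in the susceptible and lower in the resistant pair had medians of 2.67 CPM with biotype 1 alone and 11.6 CPM with the inducer in the susceptible pair, and of 16.3 and 2.98 CPM in the resistant pair. By the choice of these genes the low library was biotype 1 alone in the susceptible pair and the inducer in the resistant pair. The medians of these 2 libraries were similar, and the controls lay at 6.53 and 13.1 CPM. Glyma.13G084000 and Glyma.16G165500 belong to this group. The 61 genes that were lower in the susceptible and higher in the resistant pair had medians of 17.7 and 5.06 CPM in the susceptible pair and 5.42 and 20.95 CPM in the resistant pair, with controls at 13.2 and 8.60 CPM. Glyma.03G048600 belongs to these, with 4.57 CPM with biotype 1 alone and 0.331 CPM with the inducer in the susceptible pair. Opposite directions outnumbered the same direction under every scaling, filter, pseudocount and size minimum tried, by between 1.91 and 4.75 times. The 4.75 came from 19 against 4 genes at the 4-fold minimum. All these settings used the same 4 libraries, so they cannot show whether the directions would recur in other plants.

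**Figure D3:**
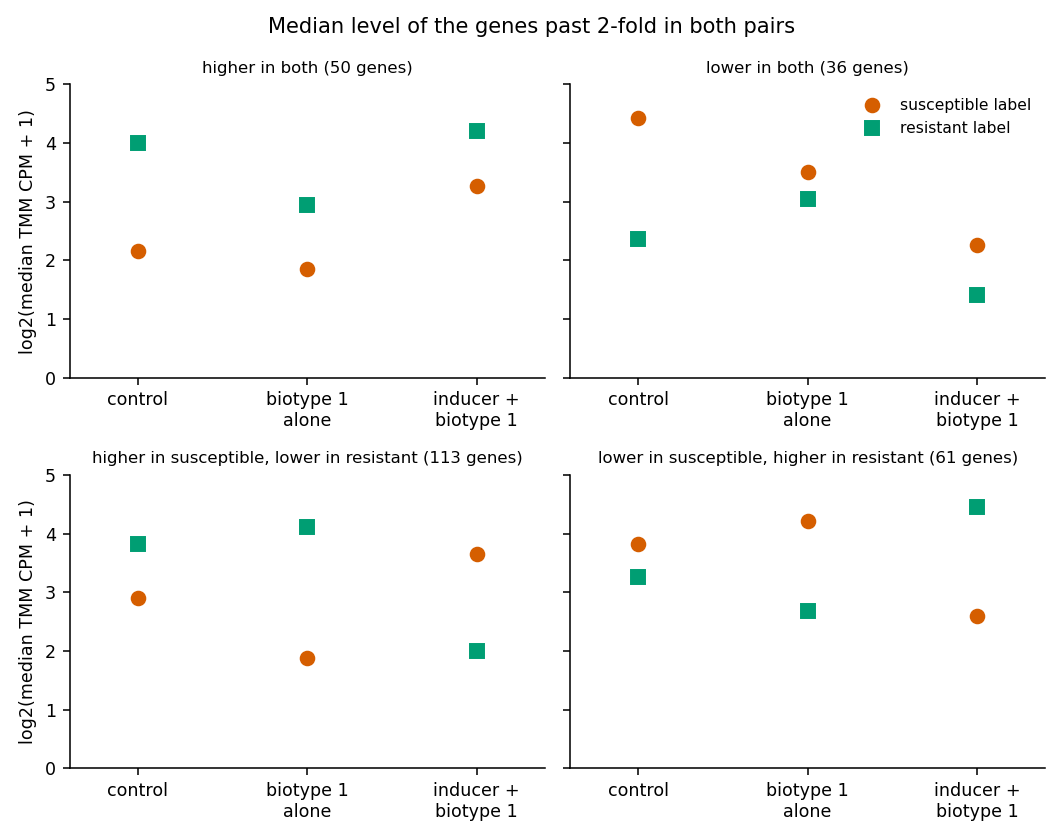
Median level of the genes past 2-fold in both pairs, as log2(median TMM CPM + 1), in the 6 libraries of day 11, for the cultivars labelled susceptible (circles) and resistant (squares), with 1 library per point and no error bars. In the lower left panel the median of the 113 genes is 2.67 CPM in the susceptible library with biotype 1 alone and 2.98 CPM in the resistant library with the inducer, the 2 lowest points of that panel. Which library of a pair is the lower one follows from how the genes were chosen.

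A gene was described as added by the inducer when it had at most 3 counts with biotype 1 alone and at least 1 CPM with the inducer, and as removed in the reverse case. Of the 37468 genes kept, 62 were added and 71 removed in the susceptible pair, and 19 were added and 50 removed in the resistant pair. Some genes were listed in both pairs, in the opposite or the same class. Glyma.07G063700 was removed in the susceptible and added in the resistant pair, and Glyma.16G134400 was added in both. Nearly all were low where they were detected, with medians of 1.68 CPM for the added and 1.30 CPM for the removed genes of the susceptible pair and 1.91 and 1.60 CPM in the resistant pair. Only 3 added and 5 removed genes of the susceptible pair reached 5 CPM, as did 4 and 1 in the resistant pair, and the highest was Glyma.13G014600 with 57.7 CPM. Of the 62 genes added in the susceptible pair, 33 had at most 3 counts in the control too and 9 had at least 1 CPM there. Of the 71 removed, 15 had at most 3 counts in the control and 27 at least 1 CPM. In the resistant pair the control had at least 1 CPM for 9 of the 19 added and 13 of the 50 removed genes. Both libraries of the resistant pair had at least 1 CPM for 29 of the 62 genes added in the susceptible pair, and at most 3 counts for 3. For the 71 removed these numbers were 8 and 28. Among the 29, Glyma.12G068900 had 0, 2 and 78 counts in the susceptible control, biotype 1 alone and inducer libraries. It had 123, 96 and 105 in those labelled resistant. Among the 28, Glyma.17G259700 had 224, 301 and 2 counts, and 0, 0 and 1. In both genes, of the susceptible libraries only the one with the inducer was like the other cultivar. Glyma.08G256800, also among the 29, had 92, 3 and 91 under the susceptible label. The cause was not tested. Both libraries of the susceptible pair had at least 1 CPM for 4 of the 19 and 13 of the 50 genes, and at most 3 counts for 1 and 5. Among the 4, Glyma.13G022200 had 73 counts with the inducer, against between 57084 and 59884 in the day 11 libraries labelled susceptible. Among the 13, Glyma.13G019700 had 76 counts with biotype 1 alone, against between 12261 and 18882. Added and removed thus describe traces in these 2 genes.

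The control of the same cultivar and day shows which library of a pair lay away from plants without aphids. Of the 1006 genes higher with the inducer in the susceptible pair, the control lay between the aphid libraries for 49.4%, below both for 30.8% and above both for 19.8%. Of the 1034 genes lower with the inducer, it lay between for 67.9%, above both for 25.6% and below both for 6.48%. In the resistant pair the control lay between for 68.7% of the higher and 76.0% of the lower genes. Over all genes kept it lay between for 32.6% under the susceptible and 30.9% under the resistant label, where the interval between the aphid libraries is mostly narrow. The control was nearer to the inducer than to biotype 1 alone for 37.6% of the higher and 31.3% of the lower genes of the susceptible pair, against 49.0% of all genes kept, and for 45.5% and 30.3% in the resistant pair, against 42.3%. A control above both was more frequent among the lower than among the higher genes in both cultivars, with 21.2% and 14.1% in the resistant pair. These shares all lay under those of all genes kept, 31.8% under the susceptible and 34.8% under the resistant label. A control below both was more frequent among the higher genes, with 17.2% of the higher and 2.8% of the lower genes in the resistant pair. Over all genes kept it was 35.6% and 34.3%.

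**Figure D4:**
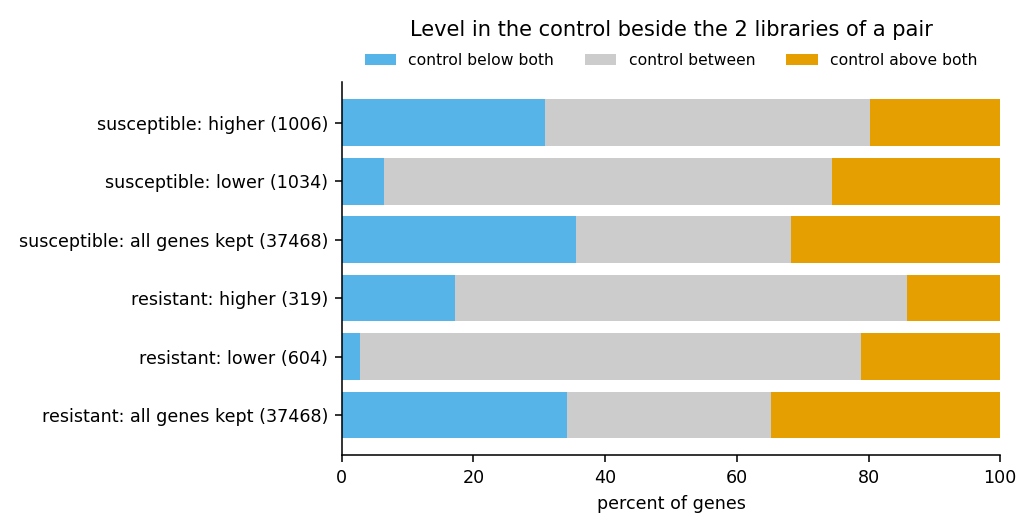
Share of genes, in percent, for which the level in the control at day 11 lay below, between or above the 2 aphid libraries of the same labelled cultivar, for genes at least 2-fold higher or lower with the inducer and for all genes kept (number of genes in brackets). The control lay between for 49.4% of the higher genes of the susceptible pair and for 76.0% of the lower genes of the resistant pair, the lowest and the highest of the 4 lists.

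For scale, the same 2-fold rule called 2816 genes between the inducer and the control and 2364 between biotype 1 alone and the control in the cultivar labelled susceptible, against 2040 within the pair. In the cultivar labelled resistant it called 1798 and 1091, against 923 within the pair. Between the cultivars it called 4758 genes with the inducer and 5282 with biotype 1 alone. These comparisons share libraries with the pairs and are given as counts only. Under TMM scaling the 2 aphid libraries of each cultivar thus differed from each other in fewer genes than either did from the control of that cultivar.

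The called genes were spread over levels and chromosomes. In the susceptible pair the share of genes that were higher with the inducer was 2.85% at a mean of 1 to 5 CPM and 5.34% over 100 CPM, while the share that were lower was 4.33% and 1.85%. In the resistant pair lower genes were more frequent over 100 CPM as well, with 3.70% lower against 1.99% higher. Under 1 CPM between 0.276% and 1.40% of genes passed in either direction, where the added 1 CPM keeps differences small. All chromosomes held genes of both directions in both pairs. In the susceptible pair the share of higher genes ran from 1.83% on chromosome 9 to 3.27% on chromosome 6 and that of lower genes from 2.01% on chromosome 10 to 3.60% on chromosome 14. In the resistant pair higher genes ran from 0.345% on chromosome 19 to 1.69% on chromosome 3 and lower genes from 0.860% on chromosome 18 to 2.08% on chromosome 11.

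**Figure D5:**
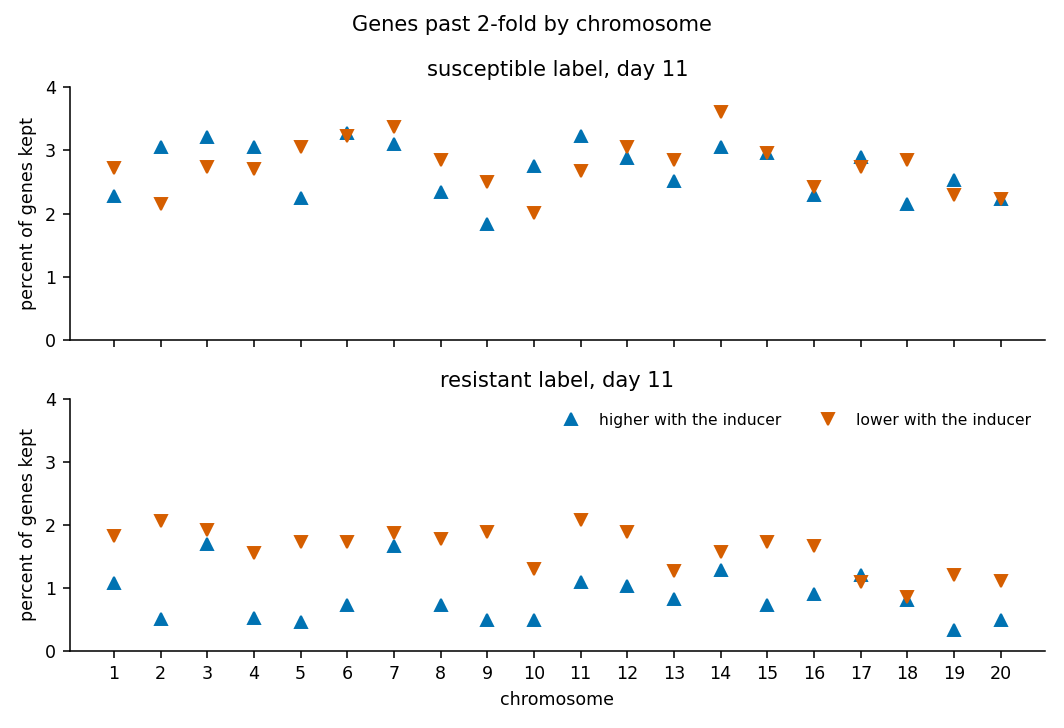
Percent of the genes kept on each chromosome that were at least 2-fold higher (upward triangles) or lower (downward triangles) with the inducer at day 11, in the susceptible pair (top) and the resistant pair (bottom), with chromosomes read from the identifiers. On chromosome 3 the resistant pair has 1.69% higher and 1.93% lower, and on chromosome 19 it has 0.345% higher and 1.21% lower.

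Neighbours of called genes were called in the same direction more often than genes as a whole, though most were not called. In the susceptible pair the next gene in identifier order was also higher for 8.57% of the higher genes, where 2.70% of the genes placed on chromosomes were higher, and also lower for 5.77% of the lower genes, where 2.75% were. In the resistant pair the values were 4.78% against 0.843% for higher and 5.35% against 1.61% for lower genes. There were 19 runs of at least 3 neighbours with 61 genes in all, 13 of them in the susceptible pair. The 4 longest runs held 4 genes each, all in the susceptible pair. The run on chromosome 8 had summed levels of 363 CPM with biotype 1 alone, 1388 CPM with the inducer and 387 CPM in the control, so that the inducer library was the high one. It had 659, 770 and 827 CPM in the cultivar labelled resistant in the same order, and its 4 genes differed by between -0.39 and 0.57 on the log2 scale in the resistant pair. The run on chromosome 15 had 71.9, 19.0 and 38.4 CPM in the cultivar labelled susceptible and 14.2, 18.6 and 12.95 CPM in the one labelled resistant, so that it was high in the first cultivar with biotype 1 alone. The run on chromosome 13 had its highest summed level with the inducer in both cultivars, with 105, 282 and 97.2 CPM under the susceptible label and 108, 164 and 145 CPM under the resistant label, and its genes differed by between 0.22 and 1.16 on the log2 scale in the resistant pair. The run on chromosome 11 had 68.9, 242 and 36.55 CPM under the susceptible label and 143, 158 and 170 CPM under the resistant label. Reads can be divided between near-identical copies, and whether the genes of a run are such copies was not tested.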

How the data were processed

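Leaf RNA of 3 replicates per condition was pooled by the authors, and stranded mRNA libraries were sequenced. Per the labels and the paper's methods, reads were checked with FastQC 0.11.3, trimmed with Trimmomatic 0.36 and quantified with Salmon 0.9.1 against the primary transcripts of Wm82.a2.v1. The authors deposited estimated counts for 55983 genes, without scaling. Whether Salmon corrected for sequence bias or used strand is not given in the sources used here. Reads that fit near-identical genes are divided among them, which makes single values of such genes uncertain.

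Counts were rounded to whole numbers, and the 37468 genes over 0.5 CPM in at least 1 of the 10 libraries were kept. TMM factors came from the 4 libraries of the comparison, and the controls were scaled to the same reference library. A gene was called past 2-fold on log2(CPM + 1), with no test, since each condition had 1 library. Exact binomial intervals at 95% cover counting error only. The test over both cultivars used R 4.3.3 with edgeR 4.0.16, and DESeq2 1.42.0 as an alternative, at an adjusted p under 0.05. The quasi-likelihood test and the 2-fold rule were tested on simulated data. These had a single spread for all genes, no difference between cultivars and the same changes in both. The simulation therefore does not show how the methods do on the present data. Named genes were the 2 with the largest difference in each direction in each pair, at a mean of at least 5 CPM over the 4 libraries.

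Samples, tests and alternatives, with the rule for naming genes, were chosen with earlier results of these data known. Alternatives covered scaling, pseudocount, filter, size minimum, tool and each library left out. The planned gene lists by function, marker lists and promoter motifs were not run and no sequences are shown, because 0 identifiers were found in RefSeq's table for Glycine_max_v4.0. Figures were drawn with matplotlib 3.10.9.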

Additional observations from a re-analysis of the deposited data

Results flagged for a closer look

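In 113 genes the inducer library was at least 2-fold higher than biotype 1 alone in the susceptible pair and at least 2-fold lower in the resistant pair, and in 61 genes it was the reverse. Each direction rests on 1 library per treatment and cultivar, and the difference between the cultivars was not tested. Of the genes named in the report 3 are among them. Glyma.13G084000 differed by 6.45 on the log2 scale in the susceptible pair and by -5.35 in the resistant pair. Glyma.16G165500 differed by 1.47 and -4.89 in the same order. Glyma.03G048600 differed by -2.07 and 3.17.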

How the results depend on the processing

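With 1 pooled library per condition, the counts within a pair describe libraries and not conditions. Kal's z-test, which covers counting error only, removed 0 of the genes past 2-fold, and with 1 CPM added it could remove few. Under plain library totals the median of all genes moved from -0.02 to -0.15 on the log2 scale in the susceptible pair, with 637 genes higher and 1597 lower, while all 1034 lower genes and 637 of the 1006 higher genes stayed called. With a pseudocount of 0.5 CPM, 1692 genes were lower in the susceptible pair, 64 were lower in both cultivars and 170 were higher in the susceptible and lower in the resistant pair. With 2 CPM, 623 were lower in the susceptible and 400 in the resistant pair, 29 were higher and 17 lower in both. At a 4-fold minimum 95 were higher and 78 lower in the susceptible pair, 32 and 103 in the resistant pair, 2 and 2 in both, 13 were higher in the susceptible and lower in the resistant pair and 6 were the reverse. DESeq2 in place of edgeR called 51 genes over both cultivars. The cause of this difference was not tested. With each of the 6 libraries left out in turn edgeR called between 0 and 0 genes (between 965 and 3632 at an unadjusted p under 0.05), a lone library being assumed to vary like the rest. Of 42 recomputed values of the 7 named genes 39 kept their direction, and the other 3 belong to Glyma.13G014600 in the resistant pair, where the difference was 0 throughout. No paired analysis by replicate number was possible because each condition had 1 library. The planned scaling of the gene lists was not run, since no list had members.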
